A study of Mus musculus with 6 samples.

Results

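The core pluripotency factors of mouse embryonic stem cells were followed in cells that carried short hairpin RNAs against the histone demethylase gene Jmjd1c. The 6 genes were Pou5f1, Sox2, Nanog, Sall4, Utf1 and Zfp42, and they were found as every probe set whose only gene symbol is 1 of these names. That gave 9 probe sets for 6 of the 18193 genes on the array: 3 for Utf1, 2 for Sall4 and 1 for each of the other 4 genes. Expression was measured on Affymetrix whole-genome mouse arrays in J1, an established mouse embryonic stem cell line, grown on gelatin in 15% serum with 1000 U/ml leukemia inhibitory factor (LIF). All cells carried a pLKO.1 lentiviral short hairpin RNA and had been selected with puromycin at 1.5 ug/ml for 2 days, starting 1 day after infection, then replated and grown for 4 days. The control hairpin shNT targets no gene, and shJmjd1c#3 and shJmjd1c#4 target Jmjd1c, a gene whose protein belongs by sequence to the JmjC histone demethylases. The 3 groups held 2 arrays each, described as biological replicates, and this small number limits the precision. The control cells thus carried a lentivirus and had seen puromycin too, and the labels call their genotype wild type.

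Pou5f1 encodes OCT4, a POU-domain transcription factor, and Sox2 encodes an HMG-box factor. The proteins bind next to each other on joined DNA elements and, with the homeodomain factor NANOG, activate the genes of the undifferentiated state, their own included. Sall4 encodes a zinc finger protein that works with OCT4 and NANOG. Utf1 encodes a chromatin-associated protein of undifferentiated cells, and Zfp42 encodes REX1, a zinc finger protein widely used as a marker of the naive state. Both are known targets of OCT4 and SOX2.

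The promoters of 4 members are printed because Sox2, Nanog and Zfp42 read lower in every knockdown array than in the control of the same number, while Pou5f1 did not. RefSeq promoter windows (build GRCm38.p6) matched 5 of the 6 members by symbol, all but Sall4. The 250 bases before the first annotated start are given 5′ to 3′ in the direction of the gene. Capitals mark matches on either strand to the octamer core ATGCAAA, the SOX core ACAATG and the joined OCT-SOX element, a longer motif that contains the SOX core and can contain the octamer core, so that matches can overlap.
Nanog, chr6:122707239-122707488, plus strand: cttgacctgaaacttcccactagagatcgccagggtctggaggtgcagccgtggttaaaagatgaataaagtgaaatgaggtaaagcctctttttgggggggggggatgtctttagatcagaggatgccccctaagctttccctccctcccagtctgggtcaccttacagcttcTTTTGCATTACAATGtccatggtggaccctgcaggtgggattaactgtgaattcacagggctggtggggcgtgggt
Sox2, chr3:34649745-34649994, plus strand: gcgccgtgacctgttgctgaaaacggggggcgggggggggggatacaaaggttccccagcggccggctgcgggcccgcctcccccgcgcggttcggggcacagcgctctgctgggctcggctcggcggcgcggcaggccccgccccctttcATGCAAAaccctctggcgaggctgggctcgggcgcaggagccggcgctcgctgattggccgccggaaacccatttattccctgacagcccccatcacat
Zfp42, chr8:43307010-43307259, minus strand: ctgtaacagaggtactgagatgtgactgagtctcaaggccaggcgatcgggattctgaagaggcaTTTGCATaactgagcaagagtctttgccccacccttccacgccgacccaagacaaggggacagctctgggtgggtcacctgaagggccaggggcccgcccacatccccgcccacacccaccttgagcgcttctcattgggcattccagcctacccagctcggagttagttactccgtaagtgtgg
Pou5f1, chr17:35505782-35506031, plus strand: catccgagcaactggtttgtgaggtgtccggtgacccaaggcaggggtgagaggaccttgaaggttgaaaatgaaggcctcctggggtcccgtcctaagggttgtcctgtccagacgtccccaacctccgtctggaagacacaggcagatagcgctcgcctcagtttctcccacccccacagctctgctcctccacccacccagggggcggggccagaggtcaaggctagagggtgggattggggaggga
The Nanog window held the joined element as TTTTGCATTACAATG, from 76 to 62 bases before the start. The 2 windows of Nanog overlap, and they were the only 2 of 32851 mouse windows (0.006%) with a match to the pattern searched. The joined element was searched as a single pattern of 15 letters, fixed at most positions, so elements with other letters there were not counted. This share thus cannot show how rare joined elements are. The octamer core alone lay 99 to 93 bases before the start of Sox2 and 185 to 179 bases before that of Zfp42, and 4.13% of all windows held it. The SOX core was in 10.7% of windows and, among these 4, in that of Nanog. The Pou5f1 window printed here and the window of Utf1 held neither the octamer nor the SOX core. A second Pou5f1 window, at a downstream start, held a SOX core. The pattern TCAAGG, only a part of a longer site of some hormone receptors, was searched on both strands and is not in capitals. The longer site was not searched. TCAAGG was in 12.5% of all windows. It lay 195 to 190 and 30 to 25 bases before the start of Pou5f1, and 218 to 213 and 66 to 61 bases before that of Zfp42. These matches describe letters in the windows, and binding was not measured. The 4 printed genes were chosen by their array values, so they cannot show whether motifs and values go together. Sites beyond the 250 bases were not searched.

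The targeted gene was examined first. The brightest probe set of Jmjd1c, 1426900_at, read 6060 and 5516 in shNT, 4541 and 4984 in shJmjd1c#3, and 3274 and 4215 in shJmjd1c#4. All 4 knockdown arrays lay below both controls, at a log2 difference of -0.46 (limma over every probe set, adjusted p = 0.358), short of the threshold. The other 2 probe sets, 1439998_at and 1448049_at, read higher in the knockdown arrays, by 0.73 and 0.90 (adjusted p = 0.439 and 0.117 by limma), and the second passed with the block (0.0127 by limma). The array thus did not settle the knockdown, and the groups are named by their labels.

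None of the 6 members passed the test in the knockdown mean, the average of both hairpins against shNT, while 5 of 6 had lower fitted values and Utf1 a higher one. Of all 12684 genes tested, 6130 had lower fitted values. Among the members Sox2 came nearest to passing, with all 4 knockdown arrays below both controls. Nanog had the largest negative difference and Zfp42 a smaller one. Pou5f1 and Sall4 differed by less than the spread between arrays. By limma with Benjamini-Hochberg adjustment over 12684 genes, 0 of 6 members were called, against 0.725% of all genes (0.56% higher and 0.166% lower). Sox2, the 1 member with an unadjusted p under 0.05, was lower, as were 5.38% of all genes, while 6.91% were higher. The median difference of the 6 was -0.14 on the log2(signal + 16) scale, against 0.01 over all genes tested. A fit with the replicate number of the sample titles as a block was also made, because arrays with the same number deviated together across genes. With this block, 2 of 6 members were called lower by limma, Sox2 and Nanog, where 2.26% of all genes were called lower, 3.33% higher and 5.6% in either direction. No label states that equal numbers share a preparation, so values with the block hold only if they do.

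**Figure D1:**
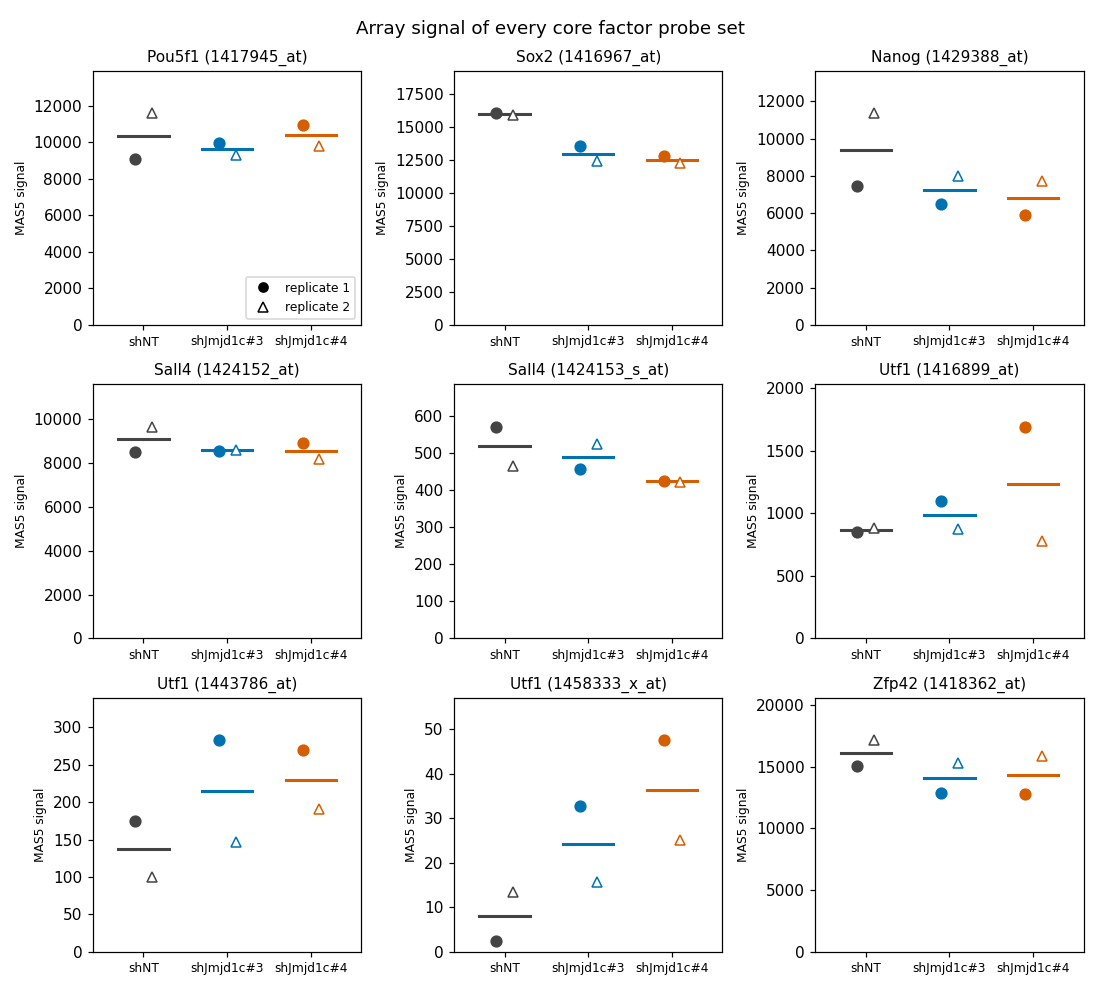
MAS5 array signal (linear scale, vertical axes starting at 0) of all 9 probe sets of the 6 members in shNT, shJmjd1c#3 and shJmjd1c#4. Filled circles are replicate 1, open triangles replicate 2 and bars the mean of 2 arrays. Sox2 lies below both controls in all 4 knockdown arrays, while the 2 shNT arrays of Nanog stand far apart.

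Sox2 was measured by probe set 1416967_at. It read 16069 and 15944 in the shNT arrays, 13603.5 and 12401.5 in shJmjd1c#3, and 12817 and 12259 in shJmjd1c#4. Every knockdown array lay below both controls, which stood close together, and 9.54% of all genes showed the same arrangement. The knockdown mean was 79.8% of control, 12770.2 ± 604 (SD, n = 4) against 16007 ± 88.2 (SD, n = 2). The log2 difference was -0.33 (SE 0.09, 95% interval -0.53 to -0.12, adjusted p = 0.191 by limma), which did not pass over all genes. With the block it passed (SE 0.06, adjusted p = 0.0131 by limma). Leaving out 1 array moved the difference between -0.36 and -0.29, so no single array set its size. The transcript Sox2ot, which spans the Sox2 locus, read 15.3 to 34.9 over the 6 arrays, below the filter signal of 40.12.

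Nanog was measured by probe set 1429388_at. It read 7434 and 11375 in shNT, 6515 and 8018 in shJmjd1c#3, and 5888 and 7719.9 in shJmjd1c#4. Replicate 2 was higher than replicate 1 in each group, and the second arrays of both hairpins lay above the first control, so the groups overlapped. Against the control of the same number all 4 knockdown arrays were lower, by log2 -0.19 and -0.50 for shJmjd1c#3 and by -0.34 and -0.56 for shJmjd1c#4. Nanog, Sox2 and Zfp42 were the 3 of 6 members lower in all 4 such comparisons, as were 16.4% of all genes, and 0 of 6 were higher in all 4, as 18.9% of all genes were. The knockdown mean was 74.8% of control, 7035 ± 1004 (SD, n = 4) against 9404 ± 2787 (SD, n = 2). The log2 difference was -0.40 (SE 0.18, 95% interval -0.81 to 0.02, adjusted p = 0.425 by limma), and it passed with the block (SE 0.08, adjusted p = 0.0151 by limma). Without shNT replicate 1 it was -0.70 and without shNT replicate 2 it was -0.09, in the fit with no block.

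The calls of Sox2 and Nanog with the block were examined further, under settings added after the data were seen. Each stayed past the threshold in 8 of 10 other settings. Both were lost without an intensity trend (adjusted p = 0.225 and 0.219 by limma) and with the hairpins as 1 group (0.051 and 0.0523 by limma). They were also lost without shJmjd1c#3 replicate 2 (adjusted p = 0.0866 and 0.0685 by limma), and each kept its call without any other single array. In the fit over all 45037 probe sets, with no filter on dim ones, the adjusted p with the block was 0.0757 for Sox2 and 0.0644 for Nanog by limma. The block thus gave calls that depended on how the spread was estimated, while the difference itself stayed between -0.28 and -0.40 for Sox2 and between -0.26 and -0.53 for Nanog.

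Zfp42, the naive-state marker, was measured by probe set 1418362_at. It read 15057 and 17165 in shNT, 12847 and 15301 in shJmjd1c#3, and 12784 and 15916 in shJmjd1c#4. As for Nanog, replicate 2 was the higher array in every group, and the groups overlapped. The 4 differences from the same-numbered control lay between -0.11 and -0.24 on the log2 scale. The fitted difference was -0.18 (SE 0.13, 95% interval -0.47 to 0.10, adjusted p = 0.62 by limma), with the knockdown mean at 88.2% of control. With the block its SE was 0.06 and its adjusted p 0.118 by limma, and it passed with the block and median centring together (-0.26, adjusted p = 0.0326 by limma) and with the block without shNT replicate 2 (-0.23, adjusted p = 0.0267 by limma).

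Pou5f1, the gene of OCT4, was measured by probe set 1417945_at. It read 9069 and 11587 in shNT, 9964 and 9281 in shJmjd1c#3, and 10932 and 9797 in shJmjd1c#4. All 4 knockdown arrays lay between the 2 controls. The knockdown mean was 96.8% of control, 9993 ± 690 (SD, n = 4) against 10328 ± 1781 (SD, n = 2). The log2 difference was -0.04 (SE 0.12, 95% interval -0.31 to 0.23, adjusted p = 0.934 by limma). This interval leaves room for a decrease or an increase of up to those amounts. Its sign rested on the controls, with -0.22 without shNT replicate 1 and 0.14 without shNT replicate 2. Against the control of the same number Pou5f1 was higher in the first arrays (0.14 and 0.27) and lower in the second (-0.32 and -0.24). With the block it passed only without shNT replicate 1 (-0.28, adjusted p = 0.0108 by limma).

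Sall4, the zinc finger partner of OCT4 and NANOG, had 2 probe sets. The brighter, 1424152_at, read 8527 and 9670.5 in shNT, 8554 and 8616 in shJmjd1c#3, and 8900.4 and 8173 in shJmjd1c#4. The groups overlapped, and the log2 difference was -0.09 (SE 0.10, 95% interval -0.31 to 0.13, adjusted p = 0.801 by limma). The dimmer, 1424153_s_at, read 570.2 and 465 in shNT, 456 and 523 in shJmjd1c#3, and 424 and 421 in shJmjd1c#4. It was at -0.17 in the fit (SE 0.15, adjusted p = 0.813 by limma over all probe sets). Both probe sets had the same sign and neither passed. Without shNT replicate 2 the brighter one was at 0.005, so its sign rested on that array.

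Utf1, the chromatin-associated factor, was the 1 member with a higher fitted value in the knockdown mean. Its brightest probe set, 1416899_at, read 847 and 884 in shNT, 1099.7 and 878 in shJmjd1c#3, and 1693 and 782 in shJmjd1c#4. The first knockdown arrays were above both controls and the second below at least 1 of them. The difference was 0.29 (SE 0.26, 95% interval -0.30 to 0.88, adjusted p = 0.726 by limma), and it was 0.02 without shJmjd1c#4 replicate 1. That array held the highest value of the 6. Probe set 1443786_at read 175 and 100.1 in shNT, 283 and 147 in shJmjd1c#3, and 269 and 191 in shJmjd1c#4. Here all 4 knockdown arrays exceeded the control of the same number, by 0.49 to 0.84 on the log2 scale. Of all genes tested, 18.9% did so at their brightest probe set. The fitted value of 1443786_at was 0.64 (SE 0.32, 95% interval -0.09 to 1.37, adjusted p = 0.637 by limma over all probe sets). Probe set 1458333_x_at stayed dim, at 2.52 and 13.4 in shNT and 15.7 to 47.6 in the knockdown arrays, with a mean below the filter signal. All 4 knockdown arrays were above both controls there, by 0.94 in the fit (SE 0.39, adjusted p = 0.558 by limma over all probe sets). The same arrangement was seen in 11.2% of all genes tested, at their brightest probe set. The 3 probe sets shared their sign, and over all 6 arrays none passed with or without the block. The brightest passed with the block without shNT replicate 2 (0.68, adjusted p = 0.000613 by limma) and without shJmjd1c#4 replicate 2 (0.54, adjusted p = 0.00572 by limma).

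The RefSeq gene table names 7 pseudogenes of Pou5f1, 2 of Nanog and 1 of Zfp42. A probe set could read RNA from such copies as well, and the values of these 3 genes carry that uncertainty.

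**Figure D2:**
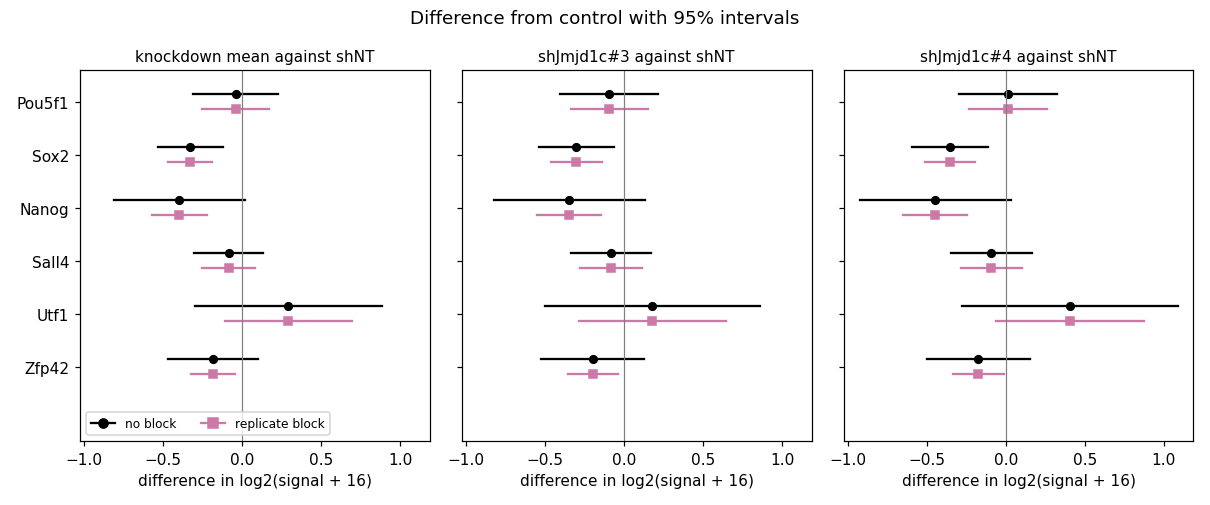
Fitted difference in log2(signal + 16) of each member from shNT for the knockdown mean, shJmjd1c#3 and shJmjd1c#4, with 95% intervals from limma. Black circles are the fit without a block and pink squares that with the replicate number as a block, which leaves each difference in place and narrows its interval. The interval of Sox2 lies below 0 in all 3 comparisons and both fits, and that of Pou5f1 spans 0 in all of them.

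**Figure D3:**
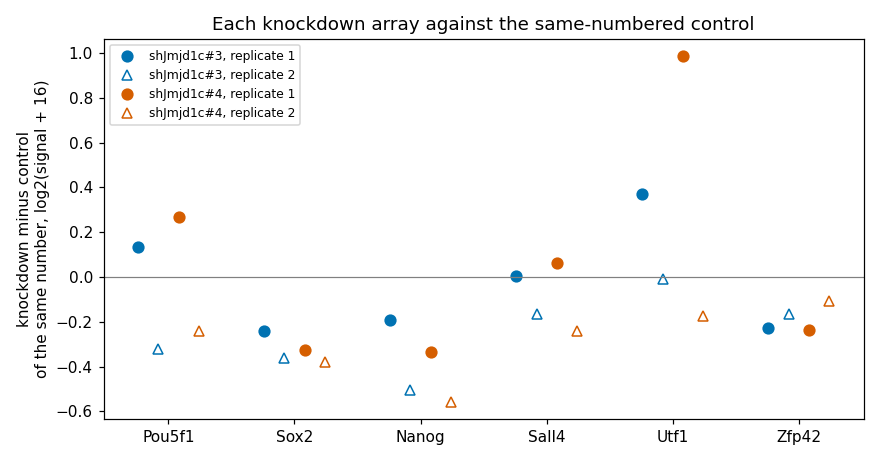
Log2 difference of each of the 4 knockdown arrays from the shNT array of the same replicate number, for the brightest probe set of each member. Circles are replicate 1 and triangles replicate 2. Sox2, Nanog and Zfp42 are below 0 in all 4, while Pou5f1, Sall4 and Utf1 lie on both sides, with Utf1 reaching 0.99 in shJmjd1c#4 replicate 1.

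The hairpins were compared with the same 2 control arrays, so their values are not independent and stand side by side here. Sox2 differed from shNT by -0.30 in shJmjd1c#3 and by -0.35 in shJmjd1c#4 (adjusted p = 0.384 and 0.224 by limma). Nanog differed by -0.35 and -0.45 (adjusted p = 0.658 and 0.441 by limma). Pou5f1 differed by -0.09 and 0.01 (adjusted p = 0.887 and 0.983 by limma). By hairpin 0 of 6 members were called in either, against 0.071% of all genes for shJmjd1c#3 and 0.363% for shJmjd1c#4 by limma, and Sox2 was the 1 member with an unadjusted p under 0.05 in each. With the block Sox2 was called lower in shJmjd1c#3 (adjusted p = 0.0476 by limma), where 1.4% of all genes were called lower. In shJmjd1c#4 Sox2 and Nanog were called lower with the block (adjusted p = 0.0191 and 0.0178 by limma), where 2.22% of all genes were. Over all probe sets these calls were lost, with adjusted p with the block of 0.208 for Sox2 in shJmjd1c#3, and of 0.101 for Sox2 and 0.0745 for Nanog in shJmjd1c#4 by limma.

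The difference between the hairpins was tested directly. For shJmjd1c#4 minus shJmjd1c#3, 0 of 12684 genes (0%) passed by limma, with 774 at an unadjusted p under 0.05, and 0.418% passed with the block. No member passed in either fit. Sox2 was at -0.05 (95% interval -0.29 to 0.19), Nanog at -0.10 (-0.58 to 0.38) and Pou5f1 at 0.11 (-0.20 to 0.42). Utf1 was at 0.23 with the widest interval of the 6, -0.45 to 0.91, and changed to -0.32 without shJmjd1c#4 replicate 1. Zfp42 at 0.02 turned to -0.049 with quantile normalization and to -0.043 with median centring.

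The balance of the members to one another was followed as the log2 difference from Pou5f1 on the same array, which no scaling of an array can alter beyond the pseudocount. The difference of Sox2 from Pou5f1 was lower in all 4 knockdown arrays than in both controls (change -0.29, exact permutation p = 0.0667, 2-sided, n = 2 and 4). With 15 arrangements this is the smallest p the design allows, so 0.05 could not be reached. The change was -0.11 without shNT replicate 1 and -0.47 without shNT replicate 2. For Nanog the change was -0.36, with 3 of 4 knockdown arrays below both controls (exact permutation p = 0.2). For Zfp42, Sall4 and Utf1 it was -0.15, -0.05 and 0.33 (exact permutation p = 0.4, 0.667 and 0.333). Adjusted over the 5 comparisons, the lowest p was 0.333 by the exact permutation test.

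Profiles over the 6 arrays were compared by the root mean square (RMS) difference of log2 values, each gene centred on its own mean. Among the members, the RMS difference was smallest between Pou5f1 and Sall4, at 0.08, and 144 of the 12684 genes were nearer to Pou5f1. Nanog and Zfp42 were 0.17 apart, with 281 genes nearer to Nanog. Nanog and Utf1 were the most unlike pair, at 0.60. The RMS difference also grows with the spread of each gene, so a small value need not mean a shared pattern. The SD over the 6 arrays was 0.14 for Pou5f1, 0.08 for Sall4, 0.33 for Nanog and 0.41 for Utf1. Outside the members, the nearest genes were Mrpl58, Tomm34 and Tmem130 to Pou5f1, Osbpl2, Kctd2 and Adal to Sox2, and Rbmxl2, Tmem39a and Ipmk to Nanog. They were Prkrip1, Map4k1 and Tpx2 to Sall4, Cnnm3, Mapk11 and Chst11 to Utf1, and Rab3gap1, Acot9 and Sipa1l2 to Zfp42. These RMS differences ran from 0.02 for Sall4 to 0.11 for Utf1, and over 6 arrays many genes can match so closely.

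The genes around the members were taken in lists by role. These lists were chosen with earlier results of these data known. Their counts and medians, here and in the paragraphs below, are thus descriptions and no independent test. Of 24 genes known as targets of OCT4, SOX2 and NANOG, 22 were tested, and 16 of these had negative differences in the knockdown mean, with a median of -0.23 against 0.01 over all genes. By limma 0 of the 22 passed over all genes, and 9 lower and 0 higher had an unadjusted p under 0.05. With the block 8 fell and 0 rose. Lefty2, a secreted inhibitor of Nodal signalling, read 2710 ± 770 in control and 1279 ± 263 in knockdown arrays (SD, n = 2 and 4; log2 -1.07, SE 0.21). Its adjusted p was 0.0799, and 0.000218 with the block, by limma. Tcl1, a cofactor of AKT kinases, was at -1.21, Klf4 at -0.55 and Klf2, like Klf4 a Krüppel-like factor of the naive state, at -0.68. All 3 were among the 8 that fell with the block (adjusted p = 0.000383, 0.00547 and 0.00116 by limma). Lefty2 was the 1 target called without the block in any setting tried, with median centring (adjusted p = 0.0382 by limma) and with the hairpins as 1 group (0.0438 by limma).

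Of 15 other transcription factors listed for the naive state, the repressor Tcf7l1 among them, 12 were negative, with a median of -0.38. By limma 0 passed, with 6 lower and 2 higher at an unadjusted p under 0.05, and with the block 6 fell and 2 rose. Klf4, Klf2 and Esrrb, an orphan nuclear receptor that binds OCT4 and NANOG target genes, are in this list and among the targets. Esrrb read 3824 ± 1226 in control and 2208 ± 460.4 in knockdown arrays (SD, n = 2 and 4; log2 -0.77, SE 0.22, adjusted p = 0.207 by limma, and 0.000586 with the block). Its difference was -1.11 without shNT replicate 1 and -0.44 without shNT replicate 2. The factors that rose with the block were Gbx2, a homeobox gene (1.14, adjusted p = 0.00766 by limma), and Tcf7l1, which encodes TCF3, a repressor of pluripotency genes (0.55, adjusted p = 0.0231 by limma). The median of this list was -0.59 without shNT replicate 1 and -0.19 without shNT replicate 2.

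Partner proteins of the members come next. Of 23 tested partners and cofactors, 15 were negative with a median of -0.04, and 0 passed by limma, with 4 lower at an unadjusted p under 0.05. With the block 3 fell and 0 rose: Esrrb, Nr0b1, an orphan receptor that binds OCT4, and Wdr5, a subunit of histone methyltransferase complexes (-0.37, adjusted p = 0.018 by limma). Esrrb and Nr0b1 were already counted among the naive factors that fell with the block. Klf5 was at -0.49, but at 0.042 with the mean of its probe sets, and Tet1, a 5-methylcytosine dioxygenase, was at -0.28. With median centring 20 of the 23 were negative, since that scaling lowered the median of all genes to -0.06. In the LIF and STAT3 pathway 8 of 10 genes were negative with a median of -0.22. Of these 0 passed by limma, 4 were lower at an unadjusted p under 0.05 and 3 fell with the block. The kinase Tyk2 was at -0.58, the kinases Pim3 and Pim1 at -0.35 and -0.33, and the LIF receptor gene Lifr at -0.34. These 4 genes are named for the smallest p of the list. All 4 knockdown arrays lay below both controls for each, which follows largely from that choice. Of all genes tested, 9.54% showed this arrangement. Lifr did not pass with the block (adjusted p = 0.0535 by limma).

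Among paralogs of the members, 14 of 18 listed genes were tested, 7 positive and 7 negative, with a median of 0.12 that turned to -0.10 without shNT replicate 1. By limma 0 passed, 5 higher and 1 lower had an unadjusted p under 0.05, and 4 rose and 1 fell with the block. Sall2, of the Sall family, read 218 ± 78.2 in control and 563 ± 200.4 in knockdown arrays (SD, n = 2 and 4; log2 1.29, SE 0.28, adjusted p = 0.108 by limma, and 0.000477 with the block). Sox11, an HMG-box gene of neural cells, was at 0.77, and at 1.13 with adjusted p = 0.0348 by limma without shNT replicate 1. The POU gene Pou3f1 was at 1.15 and Sox15, an HMG-box gene, at -0.87. With the block Sall2, Sox11, Pou3f1 and Sox4 rose and Sox15 fell. The brightest Sall4 probe set did not pass in either fit, and Sox2 fell with the block.

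Of 22 lineage factors, with a median of 0.30 over those tested, that the core factors are known to hold down, 12 passed the filter on dim genes, which a gene can pass through the knockdown arrays alone. Cdx2, the trophectoderm factor that opposes OCT4, rose from 10.6 ± 11.6 to 131 ± 53.4 (SD, n = 2 and 4; log2 2.47, SE 0.40, adjusted p = 0.0361 by limma), from a control level below the filter signal. Its call was lost with a pseudocount of 1, without the filter, without a trend, and without shNT replicate 2, shJmjd1c#3 replicate 2 or either shJmjd1c#4 array (adjusted p of 0.0517 to 0.155 by limma). Meis1, a homeobox gene, was at 1.13 (adjusted p = 0.0504 by limma), and passed with the block, as did Tfap2c, a trophoblast and germ cell factor, at -0.47. With the block 3 of the 12 rose, Cdx2, Meis1 and Otx2, and 1 fell. Sox17 was at 0.96, but at -0.18 once possibly cross-hybridizing probe sets were left out. Of 11 genes known to repress Pou5f1 as cells differentiate, 10 were tested and 9 were positive, with a median of 0.35. Cdx2 passed without the block, and with it 5 rose, Cdx2, Tcf7l1, Dnmt3b (0.80), Nr6a1 (0.54) and Dnmt3a (0.36). Dnmt3b encodes a DNA methyltransferase of the epiblast and Nr6a1 the germ cell nuclear factor, an orphan receptor.

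**Figure D4:**
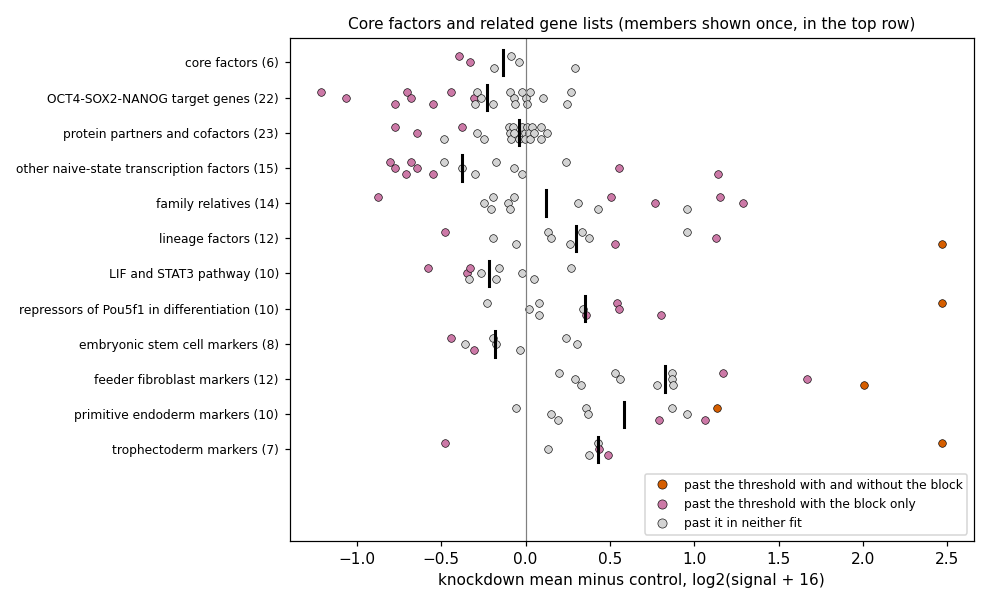
Difference of the knockdown mean from shNT in log2(signal + 16) for each tested gene of the 6 members and 11 lists, with the number of genes drawn in brackets and the list median as a bar. Members are drawn in the top row alone, so the bar of the embryonic stem cell markers leaves them out. Orange genes passed by limma with and without the replicate block, pink genes with the block alone and grey genes in neither fit, and the targets and naive factors hold most of the pink genes left of 0.

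The labelled cell type was checked on 8 markers of embryonic stem cells outside the members, all of which were above the filter signal. The list holds 12 genes with Pou5f1, Sox2, Nanog and Zfp42, which the counts and sums here leave out. The summed signal of the 8 was 86814 and 95581.7 in shNT and 76179.8 to 83114.2 in the knockdown arrays, and 6 were negative. By limma 0 of 8 passed, with 1 higher and 1 lower at an unadjusted p under 0.05, and 2 fell with the block. Among them Fbxo15, an F-box gene, was at -0.44 and Dppa5a at -0.30, both lower with the block, while Cd9 was at -0.36 and Cdh1, E-cadherin, at 0.24. Fbxo15 and Dppa5a were already counted among the targets that fell with the block. Among markers of other cell types, the 12 feeder fibroblast markers that passed the filter were positive, with Col3a1 called in the knockdown mean (2.01, adjusted p = 0.0336 by limma) and Col3a1 and Dcn in shJmjd1c#4. The summed signal of all 15 on the array was 2802 to 2928 in shNT and 3627 to 4480 in the knockdown arrays, and Col6a1, Lum and Postn were below the filter signal, at -0.10, 0.75 and -0.35 on the log2 scale. With no filter 13 of 15 were positive and 0 passed by limma. Col3a1 (31.6), Dcn (11.3), Col1a1 (39.5) and Pdgfra (39.5) had mean control signals below the filter signal and passed the filter through the knockdown arrays. The positive sign of these genes was thus partly built in by the filter. Pdgfra is on the primitive endoderm list too. Of 10 tested primitive endoderm markers 9 were positive, with Col4a1 called (1.13, adjusted p = 0.0214 by limma), and Col4a1 and Col4a2 called in shJmjd1c#4. In shJmjd1c#3 7 were positive and 3 negative, and 0 were called. In the knockdown mean Gata4 was at -0.05, Gata6 at 0.15, Sox7 at 0.37 and Sox17 at 0.96, none of them called. Without possibly cross-hybridizing probe sets 8 of the 10 were positive and 2 negative. The sum of all 11 on the array was 4551 to 4592 in shNT, 5317 to 5834 in shJmjd1c#3 and 8366 to 8798 in shJmjd1c#4, with Foxa2 below the filter signal. The calls of Col3a1 and Col4a1 were lost with the mean of probe sets and without a trend, and without shNT replicate 1, shNT replicate 2, shJmjd1c#3 replicate 2 or shJmjd1c#4 replicate 1 (adjusted p of 0.0582 to 0.122 by limma). That of Col3a1 was lost too without the filter or shJmjd1c#4 replicate 2, and that of Col4a1 with the hairpins as 1 group. Of 7 tested trophectoderm markers 6 were positive, with Cdx2 called. The sum of all 9 on the array was 5699 and 9363 in shNT and 6373 to 13483 in the knockdown arrays, which overlapped, with Gata3 and Elf5 below the filter signal. The part of these markers in the values of Sox2, Nanog and Zfp42 was not tested, and in bulk RNA fewer cells of a type and less RNA per cell cannot be told apart.

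The 18S ribosomal RNA control read lower in all 4 knockdown arrays than in both controls at its 3′ probe set, by -0.59 on the log2 scale, beside the lower Sox2. Its middle probe set did so too, by -0.68. At its 5′ probe set, by -0.71, the groups overlapped. There shJmjd1c#3 replicate 1 read 9437, and the controls read 12292 and 8517. Actb, read at both ends of its RNA, gave a 3′ over 5′ ratio of 2.70 to 2.77 in shNT, 2.26 to 2.40 in shJmjd1c#3 and 2.80 to 2.81 in shJmjd1c#4. The part of either value in the results was not tested.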

How the data were processed

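Each sample gave 1 array, from 6 ug of total RNA, per the labels' protocols. The authors deposited signal intensity from MAS5, as the submitters' processing notes name it, with the version not given in the sources used here. On every array the middle 96% of values averaged 500, so signals were used unscaled. Each is relative to the rest of its array, and dim probe sets are the noisiest.

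Of 45101 probe sets, 64 were controls, 34945 had 1 symbol in the platform annotation, 932 several and 9160 none. Only those with 1 symbol were named. The probe set with the highest mean stood for its gene as log2(signal + 16), which understates changes of dim genes. The 12684 of 18193 genes at or above the 40th percentile (signal 40.12) were tested. A model of 3 group means was fitted to the 6 arrays with limma 3.58.1 (R 4.3.3) and an intensity trend, with residual df 3 and prior df 5.96. Tests were 2-sided, adjusted by Benjamini-Hochberg, at 0.05. All 45037 probe sets other than controls were fitted likewise, unfiltered. The fit was tested on simulated data.

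Replicate numbers come from the sample titles. After removing group means, arrays of equal number correlated at 0.302, 0.223 and 0.30 in the 3 pairs of groups, so the numbers were taken to pair the arrays. With the number as a block, residual df was 2 and prior df 9.34.

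The members and the 11 gene lists were chosen with earlier results of these data known. Named genes are the members, up to 4 genes per list with the smallest p in the knockdown mean, list genes called in any comparison, and 3 genes of nearest profile per member, passing over RIKEN and Gm names. Nr0b1, Sox4, Otx2, Dnmt3a, Col1a1 and Pdgfra complete short counts and were chosen after their values were seen. Gata4, Gata6 and Sox7 are named as factors of the primitive endoderm list, also after their values were seen. Promoters and motif shares come from RefSeq windows of 250 bases before each start. Alternatives covered the pseudocount, filter, probe set rule, scaling, trend, block, grouping and each array left out.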

Additional observations from a re-analysis of the deposited data

Results flagged for a closer look

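Nr6a1, the orphan receptor gene on the list of Pou5f1 repressors, had 1 knockdown array apart from the others. It read 1497 and 1608 in shNT, 2046 and 1957 in shJmjd1c#3, and 3214 and 2056 in shJmjd1c#4. On the log2(signal + 16) scale, the gap of shJmjd1c#4 replicate 1 to the next array was 0.901 of the range of the 4 knockdown arrays, above the Dixon limit of 0.829. It was the only such value among 46 probe sets and genes examined, where chance gives about 1 in 20.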

How the results depend on the processing

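With 2 arrays a group, every difference rests on few values, and dim probe sets lie near background. Of 390 values of the members under other settings, 366 kept direction and side of the threshold, 5 newly passed and 19 changed sign. The replicate block raised the genes called to 710 in the knockdown mean, 435 in shJmjd1c#3, 622 in shJmjd1c#4 and 53 between the hairpins, and the members called to 2, 1, 2 and 0. The knockdown mean, with 92 genes called, had 36 without a filter, 34 with the mean of probe sets, 59 without cross-hybridizing ones, and 0 without a trend (1499 at an unadjusted p under 0.05 by limma). For shJmjd1c#3, 9 became 0 by limma with a pseudocount of 1, no filter, the 60th percentile filter, the mean of probe sets or no trend (1220, 1543, 1022, 1037 and 1186 at an unadjusted p under 0.05). For shJmjd1c#4, 46 became 21 with no filter, 27 with the mean of probe sets and 6 without a trend. Leaving out 1 array gave 4 to 43 calls in the knockdown mean (4 without shNT replicate 2), 0 to 1 in shJmjd1c#3 and 3 to 39 in shJmjd1c#4 (3 without its replicate 1). It called 0 members. The causes were not tested.

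Some signs turned with the scaling or the probe sets. Zfp42 between the hairpins was at -0.049 with quantile normalization and -0.043 with median centring. Pou5f1 in shJmjd1c#4 was at -0.10 with median centring, Klf5 at 0.042 with the mean of probe sets, and Sox17 at -0.18 without cross-hybridizing ones. Leaving out 1 array moved Pou5f1, probe set 1417945_at, from -0.22 to 0.14 in the knockdown mean, from -0.27 to 0.084 in shJmjd1c#3 and from -0.16 to 0.19 in shJmjd1c#4. It moved Sall4, probe set 1424152_at, from -0.18 to 0.0050 in the knockdown mean, from -0.17 to 0.0097 in shJmjd1c#3 and from -0.18 to 0.00027 in shJmjd1c#4. Utf1 in shJmjd1c#4 ran from -0.14 to 0.96. Between the hairpins the ranges were -0.12 to 0.015 for Sox2, -0.30 to 0.095 for Nanog, -0.071 to 0.052 for Sall4, -0.32 to 0.78 for Utf1 and -0.13 to 0.18 for Zfp42. Sall4 relative to Pou5f1 ran from -0.13 to 0.040.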
